A study of Mus musculus with 33 samples.

Results

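The genes described here are 37 mouse genes of glucose use and oxygen sensing: glucose and lactate transporters, the enzymes of glycolysis with their isoforms, the pentose phosphate pathway, glycogen synthesis and breakdown, and the hypoxia response. They were chosen by gene symbol, with earlier results of these data known. All 37 were found among the 54752 features of the count table, and all 37 were among the 18198 genes that passed the filter on low counts. Ankrd37 stayed at or below 3.22 CPM (counts per megacount) and Aldoc at or below 6.23 CPM in every library, so little can be read from either.

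Glycolysis splits glucose into pyruvate in the cytosol, lactate dehydrogenase turns pyruvate into lactate, and monocarboxylate transporters carry lactate across the cell membrane. The pentose phosphate pathway branches off after the hexokinase step and makes NADPH, which feeds the oxidase that neutrophils use against microbes, and ribose for nucleotides. Hypoxia-inducible factor drives many of these genes when oxygen is low; Egln enzymes hydroxylate its alpha subunit in the presence of oxygen, and Vhl then marks it for destruction. Mature neutrophils are known for their reliance on glycolysis and for their glycogen stores.

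Bulk RNA was sequenced from cells sorted from mouse bone marrow in 11 groups of 3 biological replicates, 33 libraries in all. Controls gave 7 groups: granulocyte-monocyte progenitors without Ly6C (Ly6C- GMP), proNeu1, proNeu2 and preNeu as successive neutrophil stages, and on the monocyte path cMoP (common monocyte progenitor), TpMo and the Ly6Chi monocyte. The other 4 groups were Ly6C- GMP, proNeu1, proNeu2 and preNeu from mice taken 3 days after mid-grade CLP (ligation and puncture of the caecum, which starts sepsis from the gut); their controls were described as wild type. The strain, age and sex of the mice, the number of mice behind a library and whether controls had sham surgery are not given in the sources used here. In bulk samples, fewer cells of a type and less RNA per cell cannot be told apart.

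Library totals were 5.52 to 39.98 megacounts (Mcounts); 5 libraries held at most 6.78 Mcounts and the others at least 17.2. Marker genes followed the labels: summed azurophil granule genes peaked in proNeu2 (91259 to 96512 CPM), specific granule genes in preNeu (64507 to 91440.0 CPM), and monocyte genes were at 9052 to 9506 CPM in cMoP against 648 to 852 in Ly6C- GMP. The 9 monocyte-path libraries (cMoP, TpMo, Ly6Chi monocyte) carried Y-linked Ddx3y at 68.8 to 98.6 CPM and Xist at up to 1.40 CPM, while the other 24 carried Xist at 153 to 587 CPM and Ddx3y at up to 0.725 CPM. Sex and path therefore cannot be told apart in the comparisons of cMoP with Ly6C- GMP and of preNeu with the Ly6Chi monocyte, and Pgk1 and G6pdx lie on the X chromosome. Control preNeu replicate 1 stood apart from its 2 partners in several members: Gapdh was at 520.0, 1510.0 and 1779 CPM in the 3 preNeu libraries, Tpi1 at 212, 478 and 567 CPM, Pgd at 528, 1214 and 1163 CPM, and Gpi1 at 1468, 2846 and 2466 CPM. Results on preNeu are given with and without that library where it matters.

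Together the 37 genes took a larger share of all counts in every sepsis library than in any control library of the same population. In Ly6C- GMP they held 1.21%, 1.23% and 1.25% of counts in the 3 control libraries and 2.28%, 2.32% and 2.35% in the 3 sepsis libraries. In proNeu1 the shares were 1.55%, 1.57% and 1.57% against 2.61%, 2.6% and 2.59%, in proNeu2 1.64%, 1.43% and 1.6% against 2.63%, 2.76% and 2.74%, and in preNeu 1.76%, 2.37% and 2.32% against 2.85%, 2.85% and 2.9%. Among monocyte stages the share fell from 1.76%, 1.69% and 1.73% in cMoP to 1.51%, 1.46% and 1.42% in TpMo and 1.17%, 1.14% and 1.15% in the Ly6Chi monocyte, with no overlap between the 3 groups. Per kilobase of exon, the scale used here to compare genes with each other, the most abundant members in Ly6C- GMP were Ldha (439.9 CPM per kb), Aldoa (395) and Pkm (349). In sepsis Ly6C- GMP they were Ldha (1093), Gapdh (763) and Aldoa (556). The length is that of all annotated exons of a gene, so such rankings depend on the annotation.

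**Figure D1:**
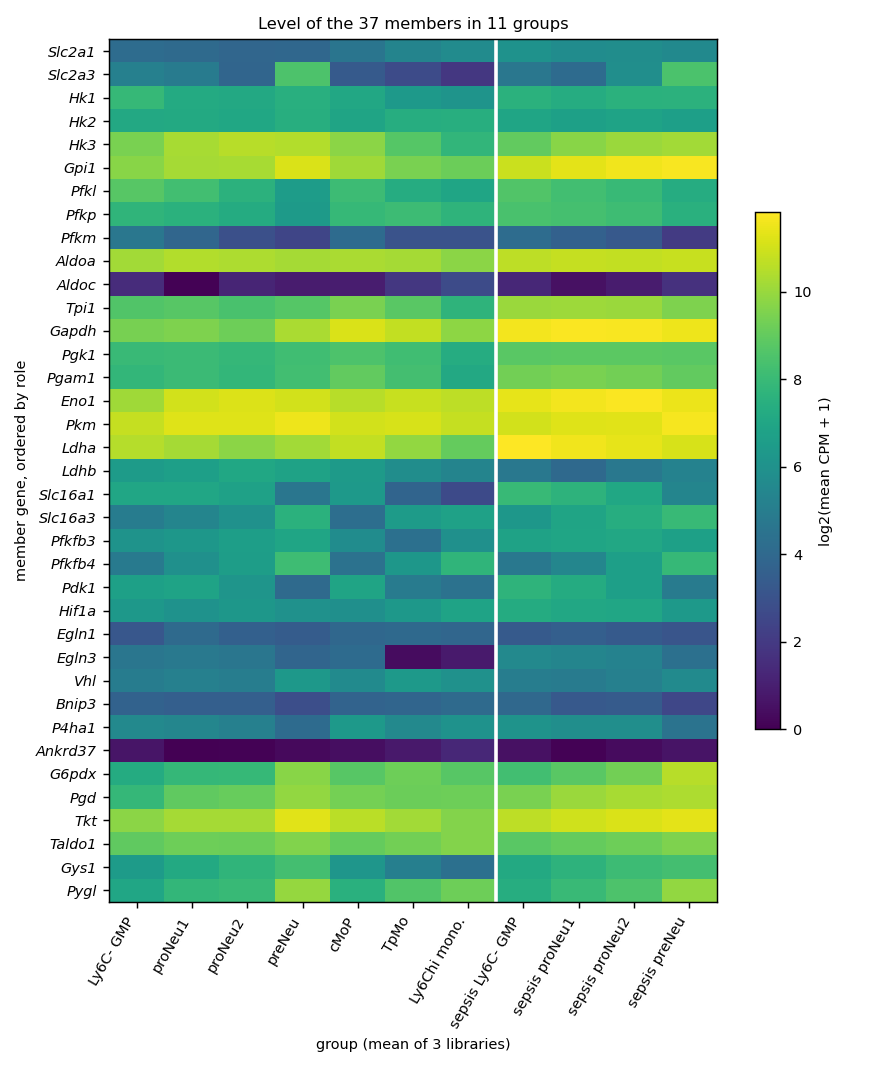
Heat map of the level of each of the 37 members (rows, by role) in the 11 groups (columns, mean of 3 libraries, sepsis groups right of the white line), as log2 of mean CPM plus 1. Glycolytic enzymes such as Aldoa, Gapdh, Eno1 and Pkm are bright in all groups, Slc2a3 is bright in control and sepsis preNeu, and Aldoc and Ankrd37 are dark throughout.

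Across the 7 control groups, 35 of the 37 members differed somewhere (edgeR quasi-likelihood test, adjusted p under 0.05, the rule for every call below), in a table where 63.6% of all genes did; Aldoc and Egln1 were not called. The step from Ly6C- GMP to proNeu1 raised 12 members and lowered 1, where 6.04% of all genes were called, 3.59% higher and 2.45% lower, and all 4 pentose phosphate and both glycogen genes were among those raised. Of these 6, Taldo1 was a weak call (0.41 ± 0.12, adjusted p = 0.0311), lost under 8 of 14 alternatives (adjusted p from 0.0154 to 0.404 over all 14). Markers of other cells moved with this step: from Ly6C- GMP to proNeu1 the summed level of 4 basophil and mast cell genes went from 7768 to 11509 to 59.9 to 122 CPM, of 4 eosinophil genes from 4778 to 8867 to 26.1 to 47.04, and of 4 dendritic cell genes from 2496 to 3595 to 52.5 to 84.2. The 6 B lineage genes went up, from 912 to 1147 to 3627 to 6661 CPM. None of the 18 was at 0 in all libraries of either group, and their part in the changes of the members was not tested. From proNeu1 to proNeu2, 1 member rose and 1 fell (3.05% of all genes called, 1.57% higher and 1.48% lower). From proNeu2 to preNeu, 19 rose and 5 fell (27.8% of all genes called, 13.1% higher and 14.7% lower); the median log2 change of the members was 0.51, beside 0.00 over all genes. Without preNeu replicate 1 this step called 18 higher and 4 lower.

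On the monocyte path, cMoP exceeded Ly6C- GMP in 15 members and was lower in 4 (17.2% of all genes called, 9.22% higher and 7.96% lower). The same basophil and mast cell, eosinophil and dendritic cell genes summed to 14.9 to 19.2, 2.30 to 9.80 and 7.24 to 11.5 CPM in cMoP; their part here was not tested. From cMoP to TpMo 12 members rose and 11 fell (18.1% of all genes called, 9.52% higher and 8.56% lower). From TpMo to the Ly6Chi monocyte 5 rose and 13 fell (20.9% called, 7.59% higher and 13.3% lower). The median log2 change of the members was 0.21, -0.12 and -0.31 in these 3 steps, beside 0.00 over all genes in each. At the last stage sampled on each path, preNeu was higher than the Ly6Chi monocyte in 22 members and lower in 5 (39.8% of all genes called, 21% higher and 18.9% lower), with a median log2 difference of 0.89 beside -0.03 over all genes. These are not matched stages: dividing-cell genes summed to 2888 to 3994 CPM in preNeu, 2882 to 3162.5 in TpMo and 163 to 340.3 in the Ly6Chi monocyte. Their part in the difference was not tested.

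**Figure D2:**
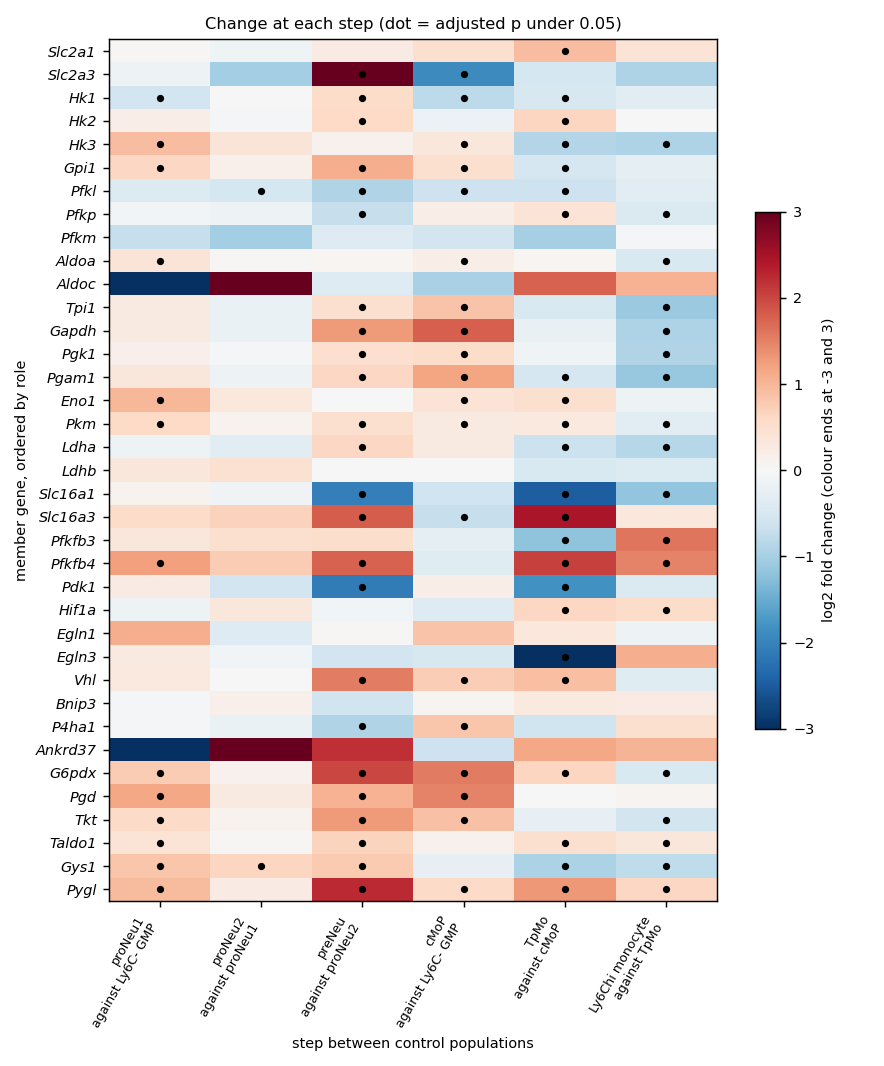
Log2 fold change of each member (rows) at 6 steps between control populations (columns), red for higher and blue for lower in the later stage, with a dot where the adjusted p was under 0.05; colours end at -3 and 3. The step from proNeu1 to proNeu2 holds 2 dots, and the steps into preNeu and into TpMo hold 24 and 23.

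In sepsis, glucose-using genes rose broadly in all 4 populations, while Ldhb was called lower in all 4 and Hk3 in 3 of them. Sepsis Ly6C- GMP had 21 members higher and 2 lower (17.7% of all genes called, 10.3% higher and 7.42% lower), and sepsis proNeu1 18 and 2 (15.6% called, 8.3% higher and 7.3% lower). In sepsis proNeu2 the counts were 19 and 2 (17% called, 9.45% higher and 7.57% lower), and in sepsis preNeu 13 and 3 (11.8% called, 7.57% higher and 4.21% lower). The median log2 change of the members was 0.80, 0.63, 0.54 and 0.39 in that order, beside medians over all genes between -0.03 and 0.00. Averaged over the 4 populations, 24 members rose and 3 fell (37.1% of all genes called, 19.6% higher and 17.5% lower). The 3 that fell were Ldhb, Hk3 and Hk2, and the 10 not called were Slc2a3, Hk1, Pfkm, Aldoc, Pfkfb4, Egln1, Vhl, Bnip3, Ankrd37 and Taldo1.

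The preNeu counts moved with the libraries in the fit. With only the 6 preNeu libraries in the fit, 8 members were called in place of 16: the calls of Aldoa (adjusted p = 0.0519), Eno1 (0.117), Gapdh (0.0654), Gpi1 (0.195), Pgam1 (0.0556), Pgk1 (0.0576), Slc16a1 (0.135) and Tpi1 (0.123) were lost. Without control preNeu replicate 1, 13 were called, 11 of them higher. Calls over all genes fell as well in both fits, in the latter to 1226 from 2145. A test of whether the sepsis effect differed between the 4 populations called 13 members (6.34% of all genes called). It called 8 without the 5 shallow libraries, 5 without control preNeu replicate 2, and 7 without sepsis preNeu replicate 3. Without control preNeu replicate 1 it called 14. Over all genes, the omission of control preNeu replicate 2 left 734 calls in place of 1154.

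Markers of other cells also moved with sepsis. In Ly6C- GMP the summed levels in control and sepsis libraries were 7768 to 11509 against 245 to 869 CPM for the 4 basophil and mast cell genes, 4778 to 8867 against 2411 to 4491 for the 4 eosinophil genes, and 2496 to 3595 against 12.96 to 17.8 for the 4 dendritic cell genes. The 6 B lineage genes were lower in sepsis without overlap in all 4 populations, at 42.9 to 86.4 CPM in Ly6C- GMP, 104 to 319 in proNeu1, 34.6 to 75.3 in proNeu2 and 32.2 to 63.4 in preNeu, against 912 to 1147, 3627 to 6661, 410.4 to 529 and 282 to 966 in controls. The 4 dividing-cell genes were also lower in all 4, at 1113 to 1291, 1186 to 1414, 1482 to 1806 and 2383 to 2594 CPM against 1649 to 1896, 1562 to 1627, 1978 to 2155 and 2888 to 3994. The 6 monocyte genes were higher in sepsis Ly6C- GMP, at 1009 to 1629 against 648 to 852 CPM, and in sepsis preNeu, at 1752 to 2326 against 577 to 1472. Azurophil genes were lower in sepsis in Ly6C- GMP, proNeu1 and proNeu2, at 25666 to 29248, 33594 to 38041 and 39606 to 42605 CPM against 43842 to 53439, 78644 to 84360.0 and 91259 to 96512. Specific granule genes were lower in sepsis preNeu, at 27283 to 35601 against 64507 to 91440 CPM, and in sepsis proNeu1, at 698 to 999 against 2001 to 4250. They were higher in sepsis Ly6C- GMP, at 333 to 518 against 111 to 176 CPM. Eosinophil genes were also lower in sepsis proNeu1, at 7.80 to 21.3 against 26.1 to 47.04 CPM. They were higher in sepsis proNeu2, at 83.6 to 195 against 23.2 to 35.3, and in sepsis preNeu, at 41.6 to 55.9 against 12.6 to 23.9. The 9 erythroid genes were lower in all 4 populations without overlap, at 53.8 to 67.9 against 139 to 208 CPM in Ly6C- GMP. The 3 megakaryocyte genes were lower in sepsis Ly6C- GMP, at 48.8 to 59.1 against 187 to 269 CPM. Summed T and NK genes were lower in Ly6C- GMP (252 to 291 against 615 to 870 CPM), proNeu1 and proNeu2, with Cd3e and Cd3g at 0 in every sepsis group. No gene of the other lists was at 0 in all libraries of a sepsis group. The part of all these markers in the changes of the 37 genes was not tested.

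**Figure D3:**
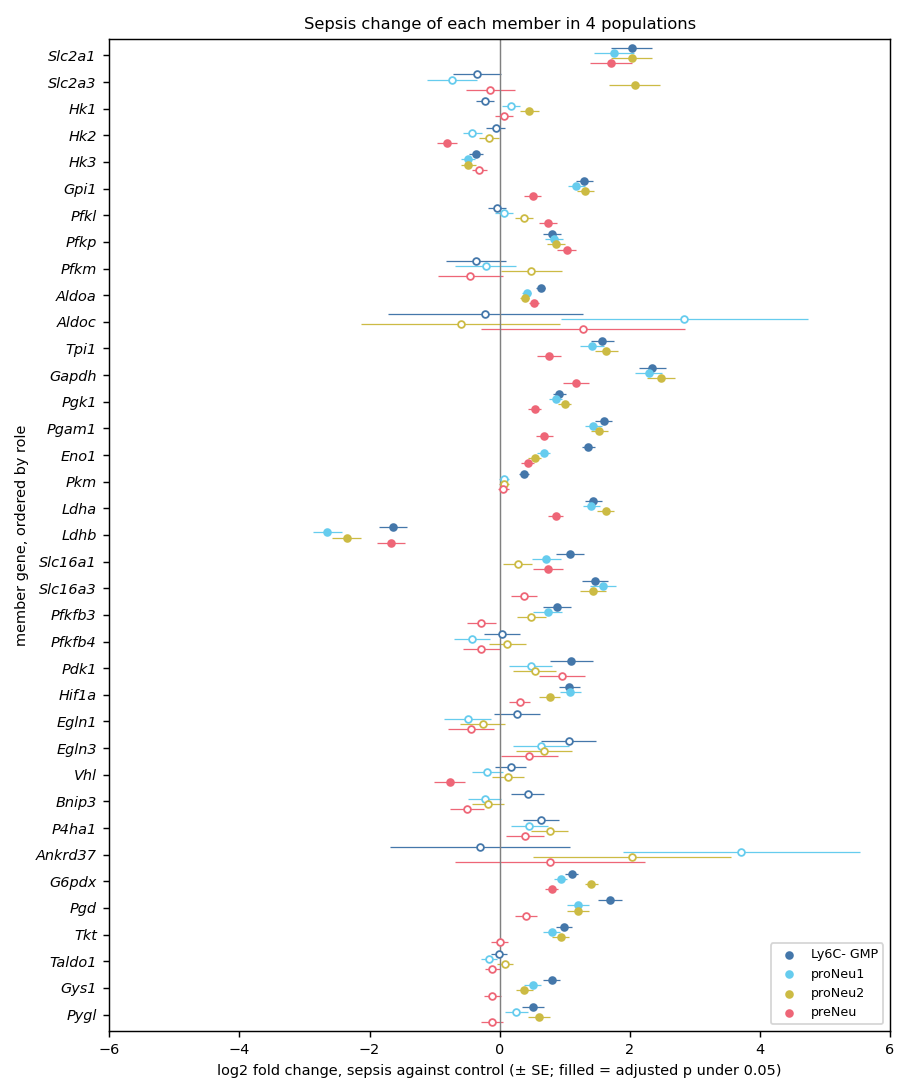
Log2 fold change of each member (rows, by role) in sepsis against control in Ly6C- GMP, proNeu1, proNeu2 and preNeu (colours), with bars of 1 standard error and filled points where the adjusted p was under 0.05. Gapdh and Slc2a1 lie right of 1 in all 4 populations, Ldhb lies left of -1 in all 4, and for Gapdh, Gpi1, Tpi1, Pgam1 and Eno1 the preNeu point lies nearest to 0.

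Glucose enters through the facilitated transporters Slc2a1 (GLUT1) and Slc2a3 (GLUT3), and the 2 genes peaked on different paths. Slc2a3 rose at the preNeu stage, from 14.8, 7.70 and 17.4 CPM in proNeu2 to 538, 306 and 261 CPM in preNeu. The groups did not overlap and the log2 fold change was 5.02 ± 0.44, adjusted p = 9.56e-10. On the monocyte path it was lower in cMoP, at 5.08, 9.80 and 12.2 CPM against 36.05, 46.1 and 22.9 CPM in Ly6C- GMP (-1.92 ± 0.39, adjusted p = 0.000728), and ended at 2.45, 1.99 and 3.80 CPM in the Ly6Chi monocyte. The gap between preNeu and the Ly6Chi monocyte had a log2 fold change of 7.23 ± 0.50, adjusted p = 1.14e-12, the largest positive difference among the members in that comparison.

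Slc2a1 was instead higher toward the monocyte: 18.6, 25.2 and 26.4 CPM in cMoP, 40.2, 32.8 and 43.3 CPM in TpMo and 53.3, 39.8 and 60.3 CPM in the Ly6Chi monocyte. The rise into TpMo passed the test (0.93 ± 0.31, adjusted p = 0.0327), but was lost under 5 of 14 alternatives, among them scaling by library totals alone (adjusted p = 0.11) and leaving out cMoP replicate 1 (0.157). preNeu, at 5.73, 16.1 and 21.6 CPM, was below the Ly6Chi monocyte without overlap (-1.67 ± 0.32, adjusted p = 8.56e-05).

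In sepsis Slc2a1 rose in all 4 populations without overlap between control and sepsis libraries. Its levels were 73.8, 61.3 and 56.1 CPM in sepsis Ly6C- GMP against 16.4, 18.8 and 15.9 CPM in the control (2.03 ± 0.31, adjusted p = 2.61e-05). They were 55.7, 44.5 and 56.9 CPM in sepsis proNeu1 against 13.3, 12.4 and 22.1 CPM (1.76 ± 0.31, adjusted p = 0.000231), and 48.2, 53.9 and 63.5 CPM in sepsis proNeu2 against 20.98, 10.1 and 10.2 CPM (2.03 ± 0.31, adjusted p = 3.23e-05). In sepsis preNeu it was at 46.2, 41.9 and 56.3 CPM (1.71 ± 0.32, adjusted p = 0.000439). The lowest of the 12 sepsis libraries was thus at 41.9 CPM, and the highest control library of these 4 populations at 22.1 CPM. Slc2a3 was called in proNeu2 alone among the 4 populations, at 33.6, 57.3 and 75.4 CPM in sepsis (2.08 ± 0.39, adjusted p = 0.000316), and the effect differed between populations (adjusted p = 0.00366).

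Hexokinases trap glucose by phosphorylating it. Hk3, the form typical of myeloid cells, was the most abundant of the 3 per kilobase in every group. It was at 404 CPM per kb in proNeu2 and 58.7 in the Ly6Chi monocyte, against 21.99 and 27.98 for Hk2. Hk1 was lower in proNeu1 than in Ly6C- GMP, at 179.7, 149 and 111 CPM against 240.3, 230.1 and 243 CPM (-0.58 ± 0.14, adjusted p = 0.0117), a call lost without proNeu1 replicate 3 (adjusted p = 0.0831) and with only the 6 libraries compared in the fit. It was also lower in cMoP, at 129, 133 and 141 CPM (-0.79 ± 0.14, adjusted p = 0.000217).

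Sepsis lowered Hk3 modestly in 3 populations, and in preNeu the value was -0.31, not called (adjusted p = 0.0772). Hk3 was at 582, 472 and 441 CPM in sepsis Ly6C- GMP against 624, 741 and 731 CPM (-0.36 ± 0.11, adjusted p = 0.028), a call that 5 of 14 alternatives ended (adjusted p up to 0.164). In proNeu1 it was at 887, 831 and 786 CPM against 1187, 1305 and 1171 CPM (-0.49 ± 0.11, adjusted p = 0.00326), and in proNeu2 at 1118, 1009.7 and 1020.2 CPM against 1652, 1381 and 1425 CPM (-0.48 ± 0.11, adjusted p = 0.00331). The groups did not overlap in any of these 3 populations. Hk2 was lower in sepsis preNeu, at 116, 99.8 and 85.8 CPM against 188, 142 and 181 CPM (-0.81 ± 0.15, adjusted p = 0.000486), also without overlap. Hk1 was called higher in sepsis proNeu2 (0.46 ± 0.14, adjusted p = 0.0265), a call that 5 of 14 alternatives ended (adjusted p up to 0.177). Gpi1, the isomerase that follows, went the other way and rose in all 4 populations (log2 fold changes 1.30, 1.18, 1.32 and 0.51). Its preNeu call did not hold without control preNeu replicate 1 (log2 0.31).

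Phosphofructokinase commits sugar to glycolysis, and its liver form Pfkl was the most abundant form per kilobase in every group mean. That order rests on annotated exon lengths of 6675 bases for Pfkl and 13401 for Pfkp. In CPM not divided by length, Pfkp was above Pfkl in some groups, among them TpMo, where Pfkp was at a mean of 278 CPM. Pfkl fell from 292, 332 and 284 CPM in proNeu1 to 159.7, 213 and 211 CPM in proNeu2 (-0.53 ± 0.14, adjusted p = 0.0361), a call lost when any 1 of the 6 libraries was left out (adjusted p from 0.0511 to 0.178). It fell again to 77.7, 82.1 and 115 CPM in preNeu (-0.90 ± 0.14, adjusted p = 1.68e-05). Neither step overlapped. The platelet form Pfkp rose in all 4 sepsis populations. In preNeu, where its rise was among the 3 largest, it went from 65.3, 76.5 and 112 CPM to 189.7, 183 and 160.5 CPM (1.03 ± 0.14, adjusted p = 1.04e-05); in the earlier stages its log2 change was 0.80, 0.84 and 0.87. Pfkl was called higher in sepsis preNeu alone (0.74 ± 0.14, adjusted p = 0.000671). Exons of Pfkp overlap those of Pitrm1 on the other strand over 5.58% of its bases, and reads there could be counted for either. Aldoa, the main aldolase, rose in all 4 sepsis populations by a log2 change between 0.39 and 0.63.

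The enzymes from triose phosphate to pyruvate include the most responsive members. Gapdh, which makes the NADH of glycolysis, was at 698, 676 and 654 CPM in Ly6C- GMP and 3002, 3218 and 3236 CPM in sepsis Ly6C- GMP (2.35 ± 0.21, adjusted p = 6.92e-09). In proNeu1 it was at 744, 780.0 and 710.2 CPM against 3569.9, 3414 and 3476 CPM in sepsis (2.29 ± 0.21, adjusted p = 2.66e-08), and in proNeu2 at 649.6, 548 and 600.1 CPM against 3080.5, 3514 and 3286 CPM (2.48 ± 0.21, adjusted p = 4.63e-09). In each of these populations every sepsis library was above every control library. In preNeu, where controls spread from 520 to 1779 CPM, sepsis libraries were at 2672, 2853 and 3319.5 CPM (1.17 ± 0.20, adjusted p = 0.000248); the log2 change was 0.82 without control preNeu replicate 1, and the call was lost with only the 6 preNeu libraries in the fit (adjusted p = 0.0654).

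Gapdh was also the member that rose most from Ly6C- GMP to cMoP, at 2362, 2378 and 2152 CPM in cMoP (1.80 ± 0.21, adjusted p = 2.51e-07). Gapdh has 77 near-identical gene copies in the annotation, which together held 2.69% as many counts as Gapdh, and reads shared with them could have been counted for either. Tpi1 (triose phosphate isomerase) and Pgam1 (phosphoglycerate mutase) rose with it in sepsis. Their log2 changes were 1.58 and 1.60 in Ly6C- GMP, 1.42 and 1.44 in proNeu1, 1.64 and 1.53 in proNeu2, and 0.76 and 0.69 in preNeu, all called; the preNeu pair was lost with only the preNeu libraries in the fit.

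Both fell at the last monocyte step. Pgam1 went from 306, 331 and 293 CPM in TpMo to 142, 145 and 133 CPM in the Ly6Chi monocyte (-1.14 ± 0.13, adjusted p = 5.53e-08), and Tpi1 from 451, 452 and 412 CPM to 196, 182 and 229 CPM (-1.12 ± 0.18, adjusted p = 1.92e-05). Neither overlapped. Pgk1, the first ATP-making step, rose by a log2 change of 0.54 to 1.00 over the 4 sepsis populations. Eno1 (enolase) rose in proNeu1 over Ly6C- GMP, from 1001, 1166 and 1233 CPM to 1894, 1964 and 2331 CPM (0.99 ± 0.10, adjusted p = 7.62e-08), and in sepsis its rise was 1.36 ± 0.10 in Ly6C- GMP and 0.43 ± 0.10 in preNeu (log2). Pkm, the pyruvate kinase that closes the pathway, was called in sepsis Ly6C- GMP alone (0.38 ± 0.08, adjusted p = 0.00206), with log2 changes of 0.07, 0.07 and 0.06 in the others.

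Lactate dehydrogenase is a tetramer of A and B subunits, and the genes of the 2 subunits moved in opposite directions in sepsis. Ldha rose from 1535, 1335 and 1499 CPM to 3637, 3532 and 3681 CPM in Ly6C- GMP (1.44 ± 0.13, adjusted p = 4.1e-09) and from 936, 649.5 and 1053 CPM to 2435, 2707 and 2892 CPM in proNeu2 (1.63 ± 0.13, adjusted p = 9.46e-10). Its log2 change was 1.41 ± 0.13 in proNeu1 and 0.86 ± 0.12 in preNeu, both called. In all 4 populations the sepsis libraries lay above every control library.

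Ldhb had the largest called fall in each of the 4 populations. In Ly6C- GMP it was at 85.7, 104 and 76.5 CPM in controls and 29.2, 25.2 and 23.5 CPM in sepsis (-1.64 ± 0.21, adjusted p = 2.63e-06), and in proNeu1 at 89.9, 109.7 and 106 CPM and 11.4, 19.9 and 14.6 CPM (-2.65 ± 0.22, adjusted p = 6.62e-09). In proNeu2 it was at 154, 136 and 102 CPM and 25.2, 26.4 and 23.97 CPM (-2.35 ± 0.22, adjusted p = 1.39e-08), and in preNeu at 104, 123 and 109.8 CPM and 33.7, 36.7 and 41.5 CPM (-1.67 ± 0.21, adjusted p = 3.53e-06). Every sepsis library of the 4 populations was below every control library of those populations.

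Because the 2 subunit genes moved apart, their promoters are shown side by side, from RefSeq on GRCm38.p6: chr7:46845554-46845853 (plus strand) for Ldha and chr6:142507908-142508207 (minus strand) for Ldhb, each from 250 bases before to 50 bases after the annotated start. The searched letters are ACGTG, one form of the core of the hypoxia response element, on either strand, and capitals mark each match; CACGTG matches on both strands and counts as 2.
Ldha: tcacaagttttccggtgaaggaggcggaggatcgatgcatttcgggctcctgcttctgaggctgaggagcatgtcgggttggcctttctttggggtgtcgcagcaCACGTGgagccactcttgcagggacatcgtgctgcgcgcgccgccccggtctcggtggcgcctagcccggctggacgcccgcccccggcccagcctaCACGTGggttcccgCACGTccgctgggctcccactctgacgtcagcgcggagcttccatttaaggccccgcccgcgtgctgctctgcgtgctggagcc
Ldhb: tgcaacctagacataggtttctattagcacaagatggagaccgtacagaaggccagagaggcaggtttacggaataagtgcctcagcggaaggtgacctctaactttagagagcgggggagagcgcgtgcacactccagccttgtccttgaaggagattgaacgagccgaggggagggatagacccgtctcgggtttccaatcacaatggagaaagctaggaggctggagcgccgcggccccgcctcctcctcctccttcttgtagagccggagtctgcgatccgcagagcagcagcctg
The Ldha window held 5 matches, 4 of them in 2 copies of CACGTG, and the Ldhb window held 0. A second annotated Ldha start also held 0. Promoters were found for 36 of the 37 members, in 50 windows; 26 of these windows (52%) held the letters, against 19.6% of 32851 windows of the same length over all genes, and 23 of the 36 members had a match in at least 1 window. The core also occurs as GCGTG, which was searched on both strands and is not marked by capitals. The Ldha window printed here and the second Ldha window held 2 matches of GCGTG each, and the Ldhb window held 1; 58% of the member windows had it, against 32.4% of all windows. Matches and the direction in sepsis were not tested against each other. On the mean sepsis effect, Gpi1, Tpi1, Pgd and Tkt rose with 0 matches of ACGTG in their windows. Gapdh and Pgam1 rose with 1 each, and Hk2 and Hk3 fell with 2 and 1. A match describes the sequence and shows no binding.

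Lactate crosses the membrane through Slc16a1 (MCT1) and Slc16a3 (MCT4), the latter known for export from glycolytic cells. The 2 genes changed places along both paths. From proNeu2 to preNeu, Slc16a1 fell from 102, 112 and 115 CPM to 19.9, 16.8 and 34.8 CPM (-2.04 ± 0.24, adjusted p = 1.23e-07) while Slc16a3 rose from 77.2, 50.6 and 56.4 CPM to 208, 186 and 159 CPM (1.81 ± 0.20, adjusted p = 7.05e-08). From cMoP to TpMo, Slc16a1 fell from 79.6, 81.99 and 87.8 CPM to 16.6, 11.9 and 10.6 CPM (-2.48 ± 0.24, adjusted p = 1.15e-08) and Slc16a3 rose from 18.2, 21.8 and 15.2 CPM to 101, 86.96 and 74.3 CPM (2.45 ± 0.21, adjusted p = 1.29e-09). None of these groups overlapped.

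Slc16a1 fell once more to 7.39, 2.65 and 5.89 CPM in the Ly6Chi monocyte (-1.19 ± 0.25, adjusted p = 0.000576), a call lost with only the 6 libraries compared in the fit (adjusted p = 0.0681). The lower Slc16a3 in cMoP than in Ly6C- GMP, at 33.4, 23.3 and 33.7 CPM there, was a weak call (-0.68 ± 0.20, adjusted p = 0.0191), lost under 5 of 14 alternatives (adjusted p from 0.00462 to 0.111 over all 14). In sepsis Slc16a3 rose in the 3 earlier stages. It reached 99.99, 129.8 and 123 CPM in sepsis proNeu1 against 51.9, 33.9 and 37.8 CPM (1.59 ± 0.20, adjusted p = 3.26e-06), with log2 changes of 1.47 in Ly6C- GMP and 1.43 in proNeu2. In preNeu the value was 0.37 ± 0.20, adjusted p = 0.262. Slc16a1 was called in Ly6C- GMP (1.08), proNeu1 (0.72) and preNeu (0.74). The proNeu1 call was lost under 5 of 14 alternatives (adjusted p up to 0.104). The preNeu libraries overlapped, and that call was also lost under 5 of 14 (up to 0.167), among them the fit without control preNeu replicate 1.

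The promoters of this pair, also from RefSeq on GRCm38.p6, are printed because the 2 genes exchanged places at the same stages: chr3:104638414-104638713 (plus strand) for Slc16a1 and chr11:120948817-120949116 (plus strand) for Slc16a3. Capitals mark ACGTG on either strand as above.
Slc16a1: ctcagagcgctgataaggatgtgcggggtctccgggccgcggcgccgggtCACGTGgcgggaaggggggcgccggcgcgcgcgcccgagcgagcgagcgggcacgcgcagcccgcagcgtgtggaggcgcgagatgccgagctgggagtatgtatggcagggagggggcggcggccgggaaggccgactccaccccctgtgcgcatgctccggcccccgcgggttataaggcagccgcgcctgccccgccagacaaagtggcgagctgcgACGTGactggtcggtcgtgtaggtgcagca
Slc16a3: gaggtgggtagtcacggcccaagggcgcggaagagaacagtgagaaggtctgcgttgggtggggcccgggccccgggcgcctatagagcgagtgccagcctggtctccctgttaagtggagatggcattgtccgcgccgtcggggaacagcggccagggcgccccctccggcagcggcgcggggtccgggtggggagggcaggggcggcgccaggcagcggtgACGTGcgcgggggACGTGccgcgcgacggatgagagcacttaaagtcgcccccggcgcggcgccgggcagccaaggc
Both windows held the letters, with 3 matches in Slc16a1, 2 of them in 1 CACGTG, and 2 in Slc16a3. GCGTG was found 2 times in the Slc16a1 window and 0 times in the Slc16a3 window.

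**Figure D4:**
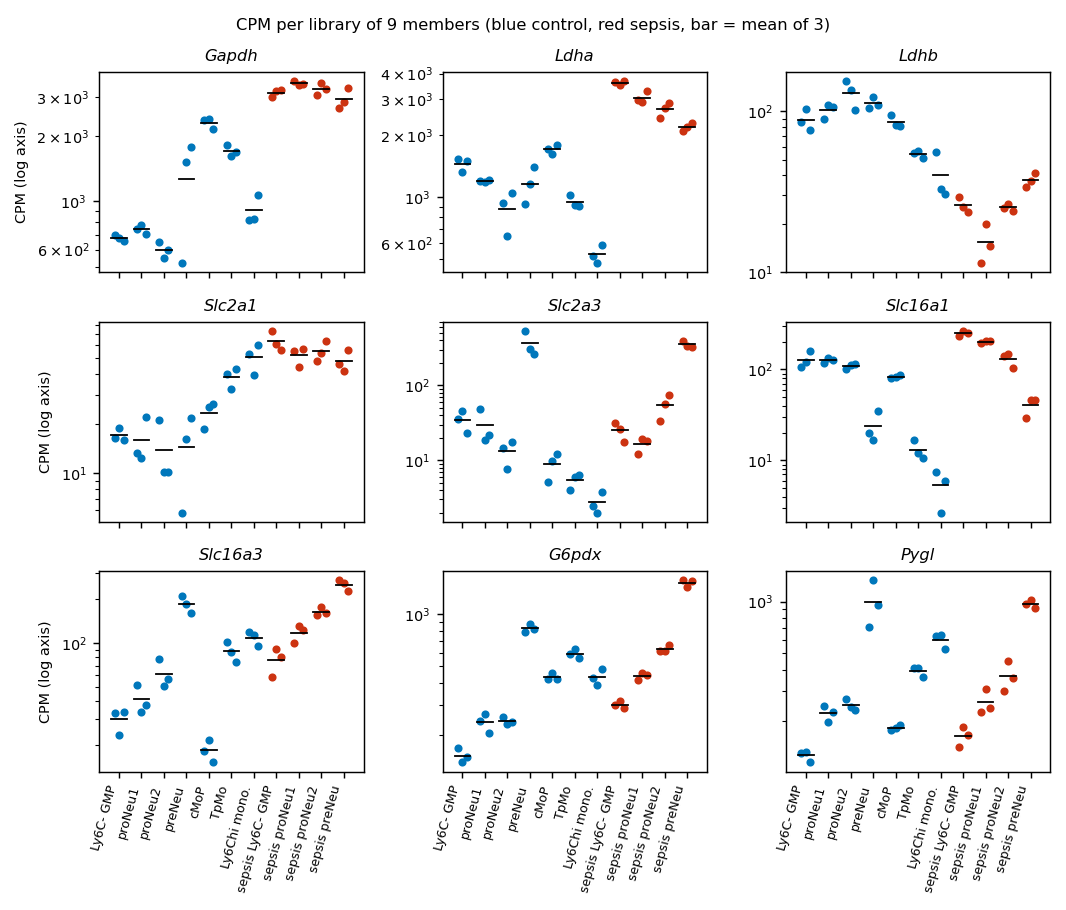
CPM of 9 members in each library (points, blue control and red sepsis, bar for the mean of 3) by group, on log axes. Gapdh, Ldha and Slc2a1 are higher and Ldhb lower in sepsis in all 4 populations, Slc2a3 and Pygl peak in control and sepsis preNeu, and Slc16a1 falls where Slc16a3 rises at the steps into preNeu and TpMo.

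Pfkfb3 and Pfkfb4 set the level of a fructose bisphosphate that activates phosphofructokinase and is not its product. Pfkfb4 rose from 16.8, 26.4 and 20.3 CPM in cMoP to 96.5, 63.5 and 69.3 CPM in TpMo (2.05 ± 0.29, adjusted p = 6.4e-06) and to 229, 236 and 176 CPM in the Ly6Chi monocyte (1.49 ± 0.28, adjusted p = 0.000199), without overlap at either step. Pfkfb3 rose at the last step, from 18.4, 10.3 and 30.6 CPM to 60.01, 61.3 and 59.2 CPM (1.61 ± 0.23, adjusted p = 3.22e-06). Among control groups both genes were highest in preNeu, at means of 122 CPM for Pfkfb3 and 279 CPM for Pfkfb4. From proNeu2 to preNeu, Pfkfb4 rose (1.78, adjusted p = 1.68e-05) and Pfkfb3 was not called (0.53, adjusted p = 0.0714). Against the Ly6Chi monocyte, preNeu was called higher for Pfkfb3 (1.22, adjusted p = 5.7e-05) and not for Pfkfb4 (0.58, adjusted p = 0.0971). In sepsis Pfkfb3 rose in Ly6C- GMP (0.88) and proNeu1 (0.74), the latter a call that 5 of 14 alternatives ended (adjusted p up to 0.137). Its mean over the 4 populations was 0.46 ± 0.11, adjusted p = 0.00137. Pfkfb4 was called in no population, with a mean of -0.13 ± 0.14, adjusted p = 0.512.

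Pdk1, the kinase that shuts pyruvate out of the mitochondrial dehydrogenase, fell into preNeu and into TpMo. It went from 70.3, 60.2 and 82.6 CPM in proNeu2 to 7.37, 7.41 and 33.5 CPM in preNeu (-2.09 ± 0.35, adjusted p = 3.85e-05) and from 122, 114 and 114 CPM in cMoP to 31.4, 27.2 and 28.6 CPM in TpMo (-1.81 ± 0.34, adjusted p = 0.000243). Neither step overlapped. In sepsis it rose in Ly6C- GMP, from 94.9, 115 and 105 CPM to 222, 207 and 187 CPM (1.10 ± 0.33, adjusted p = 0.0197), a call lost under 5 of 14 alternatives (adjusted p up to 0.078). Its mean sepsis change over the 4 populations was 0.77 ± 0.17, adjusted p = 0.000525.

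Of the oxygen-sensing genes, Hif1a, the regulated subunit of hypoxia-inducible factor, rose in 3 sepsis populations. Levels were 97.2, 69.3 and 70.9 CPM in Ly6C- GMP and 139, 176 and 142 CPM in sepsis (1.07 ± 0.16, adjusted p = 1.92e-05), with log2 changes of 1.09 in proNeu1 and 0.77 in proNeu2. In preNeu the value was 0.31 ± 0.16, adjusted p = 0.24. This is the transcript only; the protein, through which oxygen acts, was not measured. Egln3, a hydroxylase that hypoxia-inducible factor itself induces, was close to absent beyond cMoP on the monocyte path: 17.6, 18.8 and 14.02 CPM in cMoP, 0.116, 0 and 0.831 CPM in TpMo and 0.089, 1.33 and 1.09 CPM in the Ly6Chi monocyte.

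The 3 TpMo libraries held 2, 0 and 18 counts of Egln3. Its fall into TpMo had a log2 fold change of -5.46 ± 0.59, adjusted p = 8.16e-08, and preNeu, at 10.2, 15.9 and 14.7 CPM, exceeded the Ly6Chi monocyte (4.46 ± 0.57, adjusted p = 1.94e-07). Egln3 was called in no single sepsis population, and its mean over the 4 was 0.71 ± 0.22, adjusted p = 0.011, lost without the 5 shallow libraries (adjusted p = 0.0644). Vhl, the recognition subunit that removes the factor, rose from 30.5, 34.8 and 29.2 CPM in proNeu2 to 79.5, 85.6 and 69.05 CPM in preNeu (1.54 ± 0.25, adjusted p = 1.82e-05). It was lower in sepsis preNeu, at 40.1, 49.4 and 56.8 CPM (-0.77 ± 0.24, adjusted p = 0.0373), without overlap, but 6 of 14 alternatives ended that call (adjusted p up to 0.158). Egln1 was called in none of the 4 populations, with log2 changes of -0.49 to 0.27.

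Of the 3 targets of hypoxia-inducible factor outside glucose use, 1 was called on the mean sepsis effect. P4ha1, a collagen prolyl hydroxylase, had a mean sepsis change of 0.56 ± 0.14, adjusted p = 0.0019 but was called in no single population. Bnip3, a mitophagy receptor, had a mean of -0.12 ± 0.13, adjusted p = 0.518, and Ankrd37 was too low to give a fold. Bnip3 has 5 near-identical copies, which held 5.45% as many counts. Both were lower in preNeu than in the Ly6Chi monocyte: P4ha1 at 7.93, 12.8 and 29.00 CPM against 81.6, 64.98 and 46.4 CPM (-1.86 ± 0.29, adjusted p = 5.97e-06), and Bnip3 at 6.81, 6.66 and 5.07 CPM against 13.9, 21.2 and 12.7 CPM (-1.13 ± 0.26, adjusted p = 0.000739). The groups did not overlap, and the Bnip3 call was lost without the 5 shallow libraries (log2 -0.73, adjusted p = 0.0534) and with only the 6 libraries compared in the fit (0.0657).

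In the pentose phosphate pathway, the 2 NADPH-making dehydrogenases and transketolase rose from Ly6C- GMP to preNeu and with sepsis. Transaldolase also rose from Ly6C- GMP to preNeu and was not called in sepsis. On the monocyte path Tkt (transketolase) ended lowest of the 11 groups, at a mean of 782 CPM in the Ly6Chi monocyte. preNeu exceeded the Ly6Chi monocyte in G6pdx (log2 1.16), Pgd (0.89) and Tkt (1.87). G6pdx, the entry enzyme, rose from 253, 232 and 237 CPM in proNeu2 to 791, 879.7 and 821 CPM in preNeu (2.00 ± 0.10, adjusted p = 2.89e-14). Sepsis raised it in each population, by a log2 change of 1.11 in Ly6C- GMP, 0.94 and 1.41 in the next stages, and 0.80 in preNeu. Its highest libraries were those of sepsis preNeu, at 1569, 1432 and 1558 CPM, above every other library. It was also higher in cMoP, at 419.9, 455 and 424 CPM against 167, 139 and 149 CPM in Ly6C- GMP (1.55 ± 0.10, adjusted p = 3.24e-12). Exons of G6pdx overlap those of Ikbkg on the other strand over 13.6% of its bases.

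Pgd, the next dehydrogenase, had the largest rise without overlap from Ly6C- GMP to proNeu1, 250.2, 244 and 214 CPM against 505, 504 and 443 CPM (1.16 ± 0.17, adjusted p = 4.54e-05). It was also higher in cMoP, at 635, 665 and 629 CPM (1.48 ± 0.18, adjusted p = 3.84e-07). In sepsis Ly6C- GMP it reached 687, 740.1 and 679 CPM (1.70 ± 0.18, adjusted p = 8.24e-08), and it rose by a log2 change of 1.20 in proNeu1 and 1.20 in proNeu2. Tkt (transketolase) rose in the same 3 populations, by 0.99, 0.80 and 0.94. In preNeu neither was called, with values of 0.40 ± 0.17, adjusted p = 0.139 for Pgd and 0.00 ± 0.13, adjusted p = 1 for Tkt. Taldo1 (transaldolase) had a mean sepsis change of -0.05 ± 0.06, adjusted p = 0.564.

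Both glycogen genes rose on the way to preNeu and parted on the monocyte path. Pygl, the phosphorylase that breaks glycogen down, rose from 131, 133 and 115 CPM in Ly6C- GMP to 246, 199 and 228 CPM in proNeu1 (0.95 ± 0.17, adjusted p = 0.00053). From 269, 243 and 232 CPM in proNeu2 it rose to 707, 1329.6 and 959.6 CPM in preNeu (2.23 ± 0.18, adjusted p = 2.4e-10). On the other path it rose from 177, 182 and 189 CPM in cMoP to 407, 410.2 and 364 CPM in TpMo (1.30 ± 0.17, adjusted p = 2.56e-06) and 633, 638 and 531 CPM in the Ly6Chi monocyte (0.62 ± 0.17, adjusted p = 0.00908). In sepsis it rose in Ly6C- GMP (log2 0.51) and proNeu2 (0.60); the first call was lost under 8 of 14 alternatives (adjusted p up to 0.143) and the second under 3 of 14 (up to 0.133). The rise into the Ly6Chi monocyte was lost without TpMo replicate 3 (adjusted p = 0.0633) or Ly6Chi monocyte replicate 1 (0.069).

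Gys1, the synthase that builds glycogen, rose from 146, 141 and 152 CPM in proNeu1 to 224, 205 and 212 CPM in proNeu2 (0.65 ± 0.13, adjusted p = 0.00643), the rising member of that step. It fell from cMoP to TpMo (-0.94 ± 0.14, adjusted p = 7.76e-06) and again to the Ly6Chi monocyte (-0.76 ± 0.14, adjusted p = 0.000133). The preNeu libraries, at 267, 374 and 305 CPM, exceeded those of the Ly6Chi monocyte, at 21.6, 16.6 and 20.4 CPM, without overlap (4.21 ± 0.15, adjusted p = 1.44e-18). In sepsis Gys1 rose in Ly6C- GMP, proNeu1 and proNeu2 (log2 0.80, 0.51 and 0.38), and in preNeu its value was -0.11 ± 0.13, adjusted p = 0.688. The proNeu2 call (adjusted p = 0.0498) was lost under 10 of 14 alternatives (up to 0.184), and the proNeu1 call without the 5 shallow libraries (adjusted p = 0.0617). Exons of Gys1 overlap those of Ruvbl2 on the other strand over 6.47% of its bases.

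Isoform use was read as the share of each form in the summed CPM per kb of its family, for 7 families. All 7 shares differed among the 7 control groups (permutation tests with 100000 resamples, p adjusted over 7 families at most 0.00241). For aldolase the mean Aldoa share was 99.4% to 100% in every control group. Its test thus rests on Aldoc, from which little can be read. The adjusted p of that permutation test was 0.0192 without the 5 shallow libraries and 0.0177 as a log2 ratio. The lactate transporter share of Slc16a3 went from 16.5% in Ly6C- GMP through 21.2% in proNeu1 and 31.7% in proNeu2 to 86.4% in preNeu. On the other path it was 15.6% in cMoP, 84.9% in TpMo and 94.5% in the Ly6Chi monocyte. The glucose transporter share of Slc2a1 split the paths, with 2.15%, 9.78% and 14.6% in the preNeu libraries and 97.8%, 97.6% and 97.04% in those of the Ly6Chi monocyte. Hk2 made up 26.8%, 29.8% and 31.5% of hexokinase in the Ly6Chi monocyte and 4.85%, 4.66% and 5.42% in proNeu2. Pfkfb3 made up 61.1% of its pair in Ly6C- GMP, 21.9% in preNeu and 14.2% in TpMo.

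In sepsis the Ldha share of lactate dehydrogenase was 98.3%, 98.5% and 98.7% in Ly6C- GMP against 89.5%, 85.9% and 90.3% in controls, and 97.9%, 97.98% and 98.3% in proNeu2 against 74.2%, 69.4% and 83.00%. Over the 4 populations it was 15.1 percentage points higher, in 4 of 4 populations (exact permutation test within populations, two-sided, 160000 arrangements, p = 1.25e-05, the smallest possible, adjusted p = 8.75e-05). That p takes libraries of different populations as independent. Whether they came from the same mice is not given in the sources used here, and shared mice would make it too small. The same test gave 8.49 points for Pfkp within phosphofructokinase (adjusted p = 8.75e-05, 4 of 4 populations) and 20 points for Slc2a1 within the glucose transporters (adjusted p = 0.000904, 4 of 4). The Slc2a1 share was unequal over the populations: its mean went from 51.1% in controls to 84.2% in sepsis in Ly6C- GMP, from 53.8% to 86.7% in proNeu1 and from 8.84% to 22.1% in preNeu, without overlap. In proNeu2 it was 74.6%, 73.05% and 54.8% in the control libraries and 74.8%, 66.01% and 63.5% in sepsis, which overlapped, with means of 67.5% and 68.1%. The share rose by 7.92 points for Slc16a3 and 9.28 points for Pfkfb3 (exact test, adjusted p = 0.0117 for both, higher in 3 of 4 populations each). For Hk2 the difference was 0.242 points and for Aldoa 0.00999 points (exact test, adjusted p = 0.766 for both). A share moves when either form moves: for lactate dehydrogenase both did, and for phosphofructokinase Pfkl was called higher in preNeu as well.

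**Figure D5:**
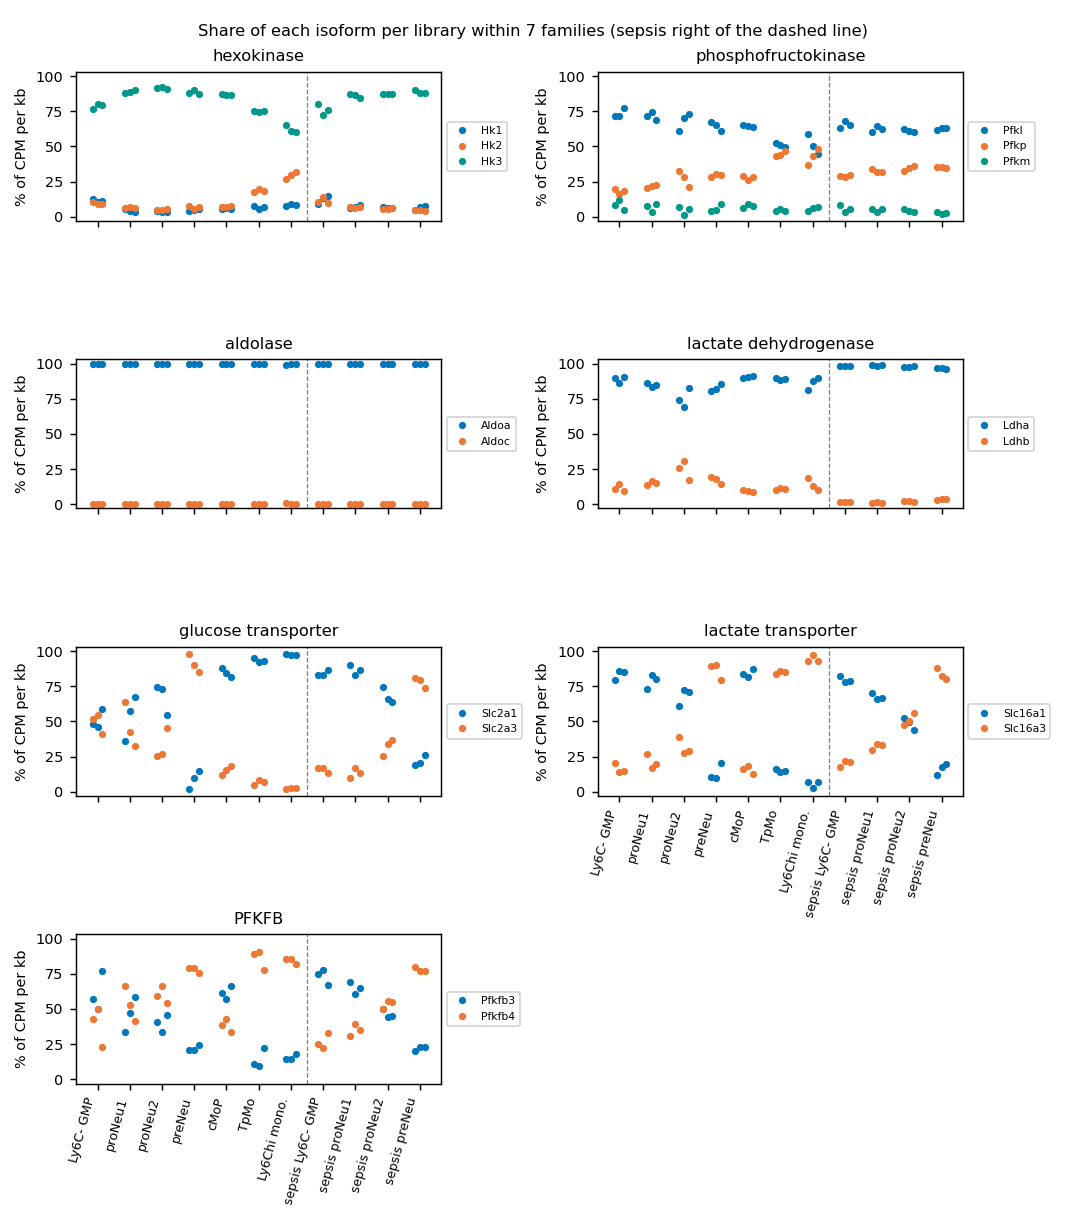
Share of each isoform in the CPM per kb of its family, in percent, for each library (points) by group, in 7 families; sepsis groups stand right of the dashed line. The Ldha points of sepsis lie between 96.3% and 99.2%, Slc16a3 overtakes Slc16a1 in preNeu and from TpMo on, and Slc2a1 is the minor form in preNeu.

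Beyond the 37 members, 64 other genes of the same pathways were tested. Per comparison, the calls were 9 higher and 2 lower in proNeu1 against Ly6C- GMP, 4 higher and 1 lower in proNeu2 against proNeu1, 13 higher and 15 lower in preNeu against proNeu2, 8 higher and 6 lower in cMoP against Ly6C- GMP, 6 higher and 13 lower in TpMo against cMoP, 3 higher and 13 lower in the Ly6Chi monocyte against TpMo, and 22 higher and 14 lower in preNeu against the Ly6Chi monocyte. Over all genes, 6.04%, 3.05%, 27.8%, 17.2%, 18.1%, 20.9% and 39.8% were called in these comparisons, in that order. In sepsis they were 18 higher and 7 lower in Ly6C- GMP and 12 higher and 7 lower in proNeu1, then 13 higher and 10 lower in proNeu2 and 10 higher and 7 lower in preNeu. The shares of all genes called there were 17.7%, 15.6%, 17% and 11.8%. On the mean over populations 23 were higher and 16 lower, where 37.1% of all genes were called. Their median log2 change was 0.06, beside 0.68 for the 37 members and 0.00 for all genes.

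Among these, the glycogen branching enzyme Gbe1 rose into proNeu1 (log2 1.19 ± 0.15, adjusted p = 3.89e-06) and again into proNeu2 (0.57 ± 0.15, adjusted p = 0.0337), and was higher in preNeu than in the Ly6Chi monocyte (3.21 ± 0.16, adjusted p = 1.76e-15). Its call into proNeu2 was lost under 8 of 14 alternatives (adjusted p up to 0.159). Ak4, a mitochondrial adenylate kinase, fell into preNeu (-3.04 ± 0.64, adjusted p = 0.000479; 0.0645 with only the 6 libraries compared in the fit) and was lower in cMoP than in Ly6C- GMP (-2.98 ± 0.59, adjusted p = 0.000504). Pdp1, the phosphatase that reactivates pyruvate dehydrogenase, fell in sepsis Ly6C- GMP (-1.21 ± 0.33, adjusted p = 0.00934), proNeu2 (-1.20 ± 0.33, adjusted p = 0.0108) and preNeu (-1.25 ± 0.33, adjusted p = 0.0116). Leaving out single libraries ended these Pdp1 calls under 1, 3 and 2 of 14 alternatives in that order (adjusted p up to 0.0626, 0.0742 and 0.158). H6pd, the dehydrogenase of the endoplasmic reticulum, rose in sepsis Ly6C- GMP (1.46 ± 0.27, adjusted p = 0.000199). Ndrg1, a hypoxia-induced gene, rose in sepsis proNeu1 (1.82 ± 0.22, adjusted p = 1.58e-06) and proNeu2 (1.40 ± 0.21, adjusted p = 2.24e-05), and Kdm3a, a histone demethylase that hypoxia also induces, fell in sepsis proNeu1 (-1.02 ± 0.17, adjusted p = 0.000104).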

How the data were processed

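Libraries were made by a SMARTSeq v2 method from sorted cells, per the labels' protocols. Reads were aligned with STAR to GRCm38 and counted with featureCounts, per the submitters' processing notes; versions, strand setting and the handling of multiply placed reads are not given in the sources used here, so overlapping and near-identical genes are uncertain. The deposited values are raw counts; of those from 1 to 10, 76.2% were even, which counting each mate of a pair would give.

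Counts were fitted for all 33 libraries together with edgeR 4.0.16 in R 4.3.3 (TMM scaling, filterByExpr, robust quasi-likelihood tests), with calls at p under 0.05 after Benjamini-Hochberg adjustment over 18198 genes. The biological coefficient of variation was 0.472, with 22 residual degrees of freedom. Changes are log2 fold changes ± SE; levels are CPM of the library total, with n = 3 libraries per group. Pearson correlations of log2(CPM + 1) between replicates were 0.947 to 0.985 over genes above a mean of 1 CPM. Isoform shares used CPM per kb of exon length from the table. The edgeR and DESeq2 tests were also run on simulated counts, with changes put into sepsis preNeu alone. Those counts lacked the stage differences of the real data, so that run cannot show how the tests behave here. The isoform permutation tests were not part of it. The second row of the symbol Aldoa, with 504 counts against 939478, was not used.

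Members named in full are, per comparison, the 3 called with the largest rise and fall at 10 CPM or more without overlap between groups; of other pathway genes at most 2 each way. The members and lists were chosen with earlier results of these data known. Sepsis comparisons and stage steps share control libraries. Alternatives were DESeq2 1.42.0, RLE, upper-quartile and total scaling, other filters, only the groups compared, and leaving out the shallow or single libraries.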

Additional observations from a re-analysis of the deposited data

Results flagged for a closer look

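The size of the sepsis change differed between Ly6C- GMP, proNeu1, proNeu2 and preNeu for 13 members (edgeR interaction test, 6.34% of all genes called). The adjusted p was 0.00021 for Eno1, 0.0016 for Tkt, 0.00326 for Pgam1, 0.00366 for Slc2a3, 0.00634 for Pgd, 0.00931 for Gapdh, 0.0102 for Gpi1, 0.0127 for Slc16a3, 0.0142 for Gys1, 0.0241 for Ldha, 0.0243 for G6pdx, 0.0457 for Pfkl and 0.0497 for Ldhb.

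For Tkt the log2 change was 0.99 in Ly6C- GMP and 0.00 in preNeu, and for Pgd 1.70 and 0.40. Eno1 changed by 1.36 in Ly6C- GMP and by 0.68, 0.54 and 0.43 in the later stages. Slc2a3 moved in proNeu2 (2.08), with values of -0.35, -0.73 and -0.14 elsewhere. Pfkl ran the other way, with its highest change in preNeu (0.74) and -0.04 in Ly6C- GMP. Control preNeu held 2486 ± 736 CPM of Tkt and 1269.8 ± 663 CPM of Gapdh (SD, n = 3), against 1191 ± 171 CPM and 599 ± 51.1 CPM in proNeu2. Any part of these control levels in the size of the sepsis change was not tested.

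Without the 5 shallow libraries, 6 of the 13 calls were lost: Gapdh (adjusted p = 0.125), Gpi1 (0.108), Ldha (0.197), Ldhb (0.146), Pgam1 (0.0751) and Pgd (0.0988). Without control preNeu replicate 1, whose Gapdh, Tpi1, Pgd and Gpi1 were low, the adjusted p was 8.73e-10 for Gapdh, 6.37e-06 for Pgam1 and 2.02e-06 for Pgd, and the calls of Ldhb (0.0635) and Pfkl (0.0905) were lost. The same interaction test then also called Tpi1 (adjusted p = 4.89e-06), Pgk1 (0.0317) and Pfkfb3 (0.0478). The Ldhb call was lost in most of the single-library omissions.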

How the results depend on the processing

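Signs were followed for members called under any setting or past 1 SE of 0. No paired analysis was possible because the labels give no replicate numbers shared between groups. Of the 27 members called on the mean sepsis effect, the count stayed between 27 and 28 when any 1 library was left out. From proNeu1 to proNeu2, DESeq2 called 5 members and 1102 genes, the stricter filter 4 members, and only the groups compared 1 member and 353 genes, against 2 and 555. DESeq2 called 2082 genes in the interaction test, against 1154. Only the groups compared gave 8 members and 1219 genes in sepsis preNeu, against 16 and 2145. Without the 5 shallow libraries, sepsis proNeu1 had 1745 genes, against 2839, and the interaction 8 members, against 13.

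Leaving out 1 library moved the counts of genes called to 711 to 907 for proNeu1 against Ly6C- GMP (1100 with all), 226 to 446 for proNeu2 against proNeu1 (with 1 to 2 members), 1880 to 2266 for sepsis proNeu1, 2060 to 2694 for sepsis proNeu2, 1226 to 2646 for sepsis preNeu and 734 to 1403 for the interaction (with 5 to 14 members). The lowest counts came without proNeu1 replicate 3, proNeu2 replicate 2, sepsis proNeu1 replicate 3, proNeu2 replicate 2, preNeu replicate 1 and preNeu replicate 2, in that order; the cause was not tested.

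Scaling by library totals alone shifted the median of all genes by up to -0.21 (preNeu against the Ly6Chi monocyte), and turned the sign of Aldoa (log2 -0.14) and Hk3 (-0.10) in preNeu against proNeu2 and of Taldo1 (-0.04) in preNeu against the Ly6Chi monocyte. Other sign changes were in values not called with all libraries: Pfkfb4 in sepsis proNeu1 (0.07 without the 5 shallow libraries), and, over the single-library omissions, Hif1a in proNeu1 against Ly6C- GMP (-0.32 to 0.00, highest without Ly6C- GMP replicate 1), Aldoc in proNeu2 against proNeu1 (-3.33 to 7.76) and preNeu against proNeu2 (-0.98 to 7.40, adjusted p = 0.0426 at the highest), both turned without proNeu2 replicate 2, Ankrd37 in preNeu against proNeu2 (-3.59 to 3.46, lowest without preNeu replicate 1) and sepsis proNeu1 (0.00 to 4.29, lowest without sepsis proNeu1 replicate 2), and Pdk1 in preNeu against the Ly6Chi monocyte (-1.28 to 0.06, highest without Ly6Chi monocyte replicate 3). As a log2 ratio, the Aldoa share in sepsis turned to -0.0169. The shallow libraries limit genes of a few CPM, such as Aldoc and Ankrd37.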
